A study of Mus musculus with 5 samples.

Results

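The transcripts described here are those of 10 genes of the hypoxia-inducible factor (HIF) pathway: the factor subunits Hif1a and Epas1, the oxygen-sensing genes Vhl, Egln1 and Egln3, and the target genes Vegfa, P4ha1, P4ha2, Ankrd37 and Kdm3a. They were taken by symbol, 1 row each, from a table of 52459 genes. All 10 had a mean of at least 1 FPKM (fragments scaled to transcript length and library size) and entered the test. The cells were mouse pancreatic cancer cells of the HY15549 line, on a C57BL/6 background, that carry a GFP-LC3-RFP reporter, whose ratio of green to red light reads autophagy, the delivery of cell contents to the lysosome. Every group carried this reporter and grew as organoids in Matrigel, a gel of basement membrane proteins, in DMEM with serum. The organoids were dissociated and sorted into autophagy-high cells (AThi, 2 libraries) and autophagy-low cells (ATlo, 3 libraries). All cells come from 1 tumour line, and the labels do not say whether the replicates were separate cultures, so a p-value here reflects only library-to-library spread, which may be technical. The labels name no hypoxia treatment and no oxygen level.

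HIF is a pair of an oxygen-regulated alpha subunit and the stable partner ARNT. In cells with enough oxygen, prolyl hydroxylases of the EGLN family mark the alpha subunit, and the VHL ubiquitin ligase then sends it to the proteasome, so the pathway is switched mainly at the level of protein. When oxygen is short the alpha subunit persists and switches on genes of glycolysis, vessel growth and matrix building, together with some of the EGLN genes that restrain it. Transcript levels therefore do not report the amount of HIF protein.

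The depth implied by the smallest steps of the values was 27.6 and 45.0 M reads in the AThi libraries and 36.0 to 42.1 M in the ATlo libraries, where 3 reads on a transcript of 1 kilobase correspond to 0.0667 to 0.109 FPKM. By limma on log2(FPKM + 0.5), 5884 of 11397 tested genes, or 51.6%, passed a Benjamini-Hochberg adjusted p of 0.05, 22.2% higher and 29.4% lower in AThi. Over all tested genes the median was -0.03 log2 units. Of 9 epithelial markers the most abundant, the keratin gene Krt19, was at 1395 and 1605 FPKM in AThi and 1525 to 1842 FPKM in ATlo, while Epcam was between 1.51 and 3.57 FPKM and Cldn4 at or below 0.15 FPKM in all libraries. Of 8 endothelial markers, which matter because Epas1 and the receptor gene Kdr are known from vessel cells, Kdr and Emcn were listed at 0 in every library and Pecam1 and Cdh5 stayed at or below 0.06 FPKM. Flt1 was the 1 endothelial marker past the filter. The summed endothelial level was 2.65 and 2.92 FPKM in AThi and 2.72 to 2.95 FPKM in ATlo.

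Of the 10 genes, 8 rose in AThi, 1 fell and 1 was not called. Their median was 0.95 log2 units. The 8 rises stand against 22.2% of all tested genes, and the fall against 29.4%. The 10 genes were chosen with earlier results of these data known, so the shares given here describe them and are not a test. The genes that rose were Vhl, both Egln genes and all 5 targets, and the gene that fell was Hif1a itself. In 9 of the 10 genes the AThi and ATlo libraries did not overlap, as in 70.3% of all tested genes, and in 8 of them AThi was the higher, as in 31.9%. A rise of at least 1 log2 unit was found for P4ha2, Ankrd37, Vegfa and Egln3, 4 of the 10, against 2.38% of tested genes.

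**Figure D1:**
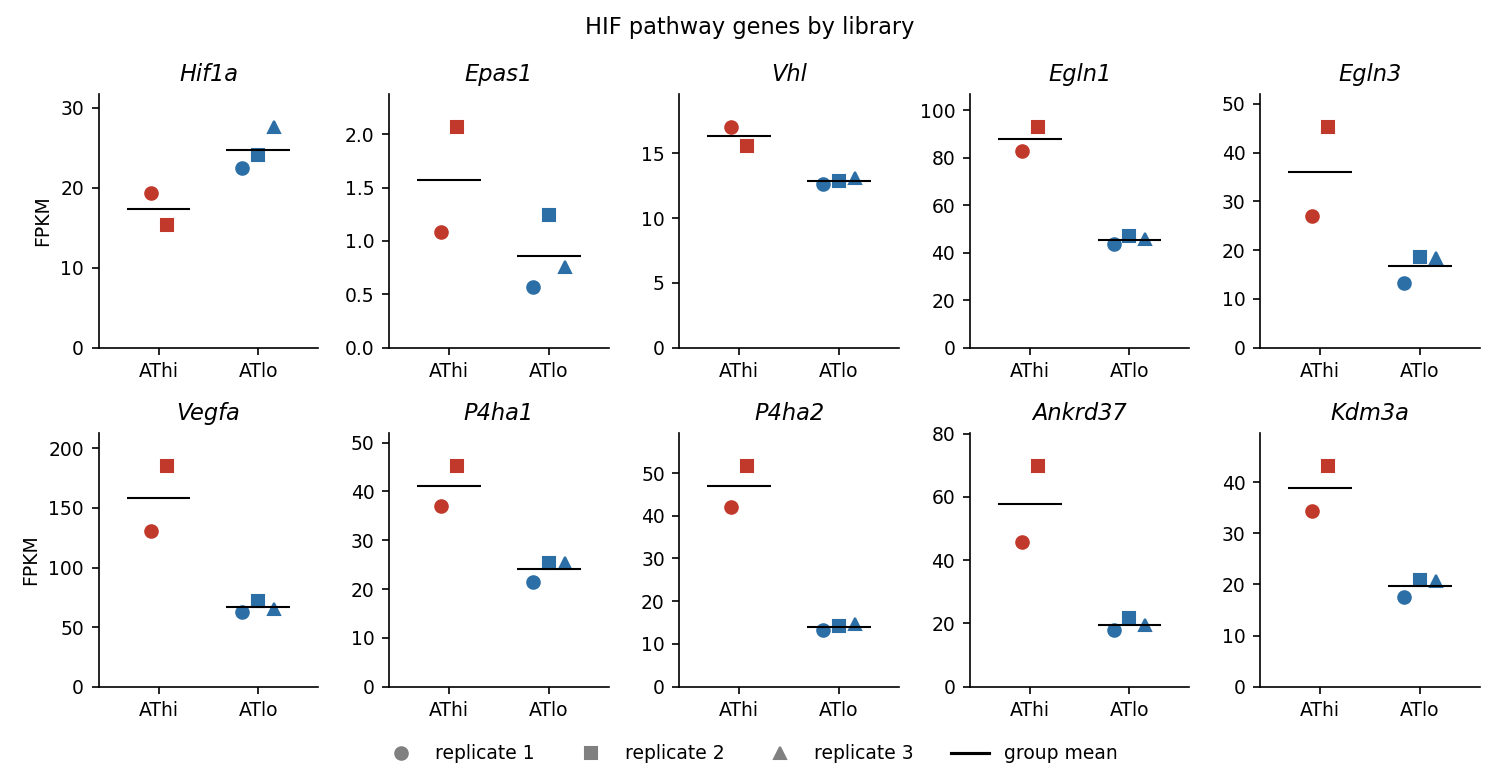
FPKM of each of the 10 genes (y axis, from 0) in the AThi and ATlo libraries (x axis), where symbols are replicates and the black line is the group mean. Hif1a is lower in both AThi libraries, Epas1 overlaps between the groups, and the other 8 genes are higher in both AThi libraries than in any ATlo library.

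The proximal promoters of the 10 genes, of which 8 rose and Hif1a fell, were read for the core letters of the HIF binding element. RefSeq windows of 300 bases on GRCm38.p6, from 250 bases before to 50 bases after an annotated start, were found for 9 of the 10 genes, all but Epas1, 12 windows in all. ACGTG and GCGTG were searched on both strands, and they appear as CACGT and CACGC where the other strand holds them. At least 1 match stood in 8 of these 12 windows, 1 window for each of 8 genes, against 43.8% of all 32851 windows in the table. Many promoter windows are rich in G and C, and the member windows had 49.0 to 86.0% of these bases against a median of 52.7% for all windows, which bears on how often such letters occur. A match is a description of the letters and does not show a bound site. Shown here are both collagen hydroxylase genes, whose responses differed in size, with Ankrd37 and Egln1, with matches in capitals.
P4ha2, chr11:54100674-54100973, plus strand: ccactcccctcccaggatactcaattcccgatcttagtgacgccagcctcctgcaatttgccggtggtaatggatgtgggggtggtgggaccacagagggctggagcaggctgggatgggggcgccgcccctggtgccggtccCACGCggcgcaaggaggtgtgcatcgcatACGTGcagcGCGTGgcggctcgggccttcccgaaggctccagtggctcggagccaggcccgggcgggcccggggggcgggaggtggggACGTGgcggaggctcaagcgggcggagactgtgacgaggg
P4ha1, chr10:59323046-59323345, plus strand: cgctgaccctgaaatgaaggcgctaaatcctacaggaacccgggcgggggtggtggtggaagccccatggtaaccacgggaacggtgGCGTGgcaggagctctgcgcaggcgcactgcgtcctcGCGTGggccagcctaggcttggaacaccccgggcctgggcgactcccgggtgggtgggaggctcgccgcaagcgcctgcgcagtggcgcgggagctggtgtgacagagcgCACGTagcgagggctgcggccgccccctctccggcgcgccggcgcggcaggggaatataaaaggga
Ankrd37, chr8:45999801-46000100, minus strand: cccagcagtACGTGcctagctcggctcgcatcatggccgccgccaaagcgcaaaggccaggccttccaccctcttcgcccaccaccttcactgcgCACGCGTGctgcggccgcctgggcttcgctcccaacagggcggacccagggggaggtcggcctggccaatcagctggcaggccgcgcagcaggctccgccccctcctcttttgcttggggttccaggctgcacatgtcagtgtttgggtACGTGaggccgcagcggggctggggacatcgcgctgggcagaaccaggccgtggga
Egln1, chr8:124949205-124949504, minus strand: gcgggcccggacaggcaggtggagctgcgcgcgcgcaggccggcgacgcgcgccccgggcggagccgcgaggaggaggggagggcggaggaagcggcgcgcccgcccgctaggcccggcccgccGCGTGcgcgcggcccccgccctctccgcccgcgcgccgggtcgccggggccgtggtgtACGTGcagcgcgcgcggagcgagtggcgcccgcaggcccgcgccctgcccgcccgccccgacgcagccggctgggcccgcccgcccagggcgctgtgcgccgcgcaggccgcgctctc

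P4ha2 and Ankrd37, the genes with the largest rises, had windows with 70.3 and 69.0% G and C. Each held 4 matches, and at least 4 were found in 3.86% of all windows, a share not matched for base content. In Ankrd37 a pair of them overlaps, so that CACGCGTG is read on both strands. P4ha1 held 3 matches and Egln1 held 2. Hif1a, which fell, also held 3, of which 2 overlap on opposite strands, and Egln3 and the first Kdm3a window held 1 each. The window at the upstream start of Vegfa held none, and its second window, inside the gene, held 2. By the gene coordinates given below, the windows of Ankrd37, P4ha2 and Hif1a also lie inside the gene, downstream of its outermost annotated start. The same holds for the later Kdm3a windows, which had no match. The known hypoxia element of the human VEGFA gene lies farther upstream than this window reaches. Vhl held none.

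Hif1a, on chromosome 12 (73901375 to 73947530, plus strand, GRCm38), encodes the alpha subunit of HIF found in most cell types. It was at 19.3 and 15.3 FPKM in AThi, against 22.4, 24.1 and 27.6 FPKM in ATlo. Both AThi libraries were below every ATlo library. The log2 fold change was -0.50 ± 0.12 (SE), with an adjusted p of 0.0128 in limma and a 95% interval of -0.80 to -0.21. Without AThi replicate 2 the log2 fold change was -0.34 and the adjusted p 0.0828, and with no filter on low values the adjusted p was 0.0531, so the call was lost in both cases. Gm15283, an annotated antisense RNA, overlaps 330 bases of the Hif1a exons and was at 0.92 and 1.38 FPKM in AThi and 0.46 to 0.55 FPKM in ATlo. Whether reads were counted by strand is not given in the sources used here, so reads of the overlap cannot be told apart. Gm49321, a protein-coding gene on the same strand, overlaps 148 bases of the Hif1a exons and had no value here. Strand could not separate reads of that overlap.

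Epas1, on chromosome 17 (86753700 to 86833410, plus strand), encodes the second alpha subunit, HIF2-alpha. It was the least abundant of the 10 genes in every library, at 1.08 and 2.07 FPKM in AThi, against 0.57, 1.24 and 0.76 FPKM in ATlo. Its groups overlapped, since ATlo replicate 2 was above AThi replicate 1. The titles of same-numbered AThi and ATlo libraries share a code whose meaning is not stated, and within both such pairs Epas1 was higher in AThi. These values correspond to 134 to 521 implied reads, and counting error alone gives 0.922 to 1.26 FPKM for AThi replicate 1 and 1.09 to 1.40 FPKM for ATlo replicate 2 (exact Poisson 95% intervals). The log2 fold change was 0.60 ± 0.28 (SE), with an adjusted p of 0.108 in limma and a 95% interval of -0.05 to 1.26, so neither no change nor a doubling lies outside it. Without ATlo replicate 2 the adjusted p was 0.0493, and with the replicate number as a block the log2 fold change was 0.56 and the adjusted p 0.0154, so the gene was called in both of these fits. Without AThi replicate 2 the log2 fold change was 0.25, with an adjusted p of 0.547.

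The ratio of Epas1 to Hif1a within a library, which FPKM allow because they are scaled per length, was 0.0559 and 0.135 in AThi, against 0.0255, 0.0516 and 0.0275 in ATlo. Hif1a was thus the far more abundant alpha subunit transcript in all 5 libraries. The groups did not overlap, though AThi replicate 1 and ATlo replicate 2 were close. The mean log2 ratio differed by 1.40 between AThi and ATlo, with an exact two-sided permutation p of 0.2, the smallest that 2 against 3 libraries can give. Without AThi replicate 2 the difference was 0.76.

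The remaining subunits and partners of the family were read from a list of 11 genes, which includes Hif1a and Epas1. Of them 5 were tested, and 2 rose, 1 fell (Hif1a) and 2 were not called. Among all tested genes 22.2% rose and 29.4% fell. Arnt, the shared beta subunit, was at 15.6 and 15.8 FPKM in AThi and 12.3 to 12.9 FPKM in ATlo, a log2 fold change of 0.31 ± 0.06 (SE) with an adjusted p of 0.0048. The aryl hydrocarbon receptor gene Ahr, whose product also pairs with ARNT, rose by 0.31 ± 0.07 (SE), while Arntl, the clock gene of the same protein family, was at 2.84 and 2.72 FPKM in AThi and 2.54 to 2.67 FPKM in ATlo, with an adjusted p of 0.438. Hif3a, the gene of the third alpha subunit, lay below the filter, at 1.44 and 1.76 FPKM in AThi, against 0.18, 0.12 and 0.16 FPKM in ATlo. In the fit with no filter its log2 fold change was 1.68 ± 0.12 (SE), with an adjusted p of 0.00201 in limma. Arnt2, Npas1, Npas3, Sim1 and Sim2 were at or below 0.29 FPKM in every library.

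Among the oxygen sensors, Egln1 encodes PHD2, the main prolyl hydroxylase acting on HIF1-alpha, and lies on chromosome 8 (124908587 to 124949324, minus strand). It was at 82.7 and 93.0 FPKM in AThi, against 43.4, 47.1 and 45.6 FPKM in ATlo. The groups were far apart compared with the spread within them. The log2 fold change was 0.94 ± 0.08 (SE), with an adjusted p of 0.000149 in limma, and it lay between 0.86 and 1.03 with any 1 library left out.

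Egln3, on chromosome 12 (54178981 to 54203860, minus strand), encodes PHD3, a hydroxylase known as a strongly oxygen-responsive member of the family. It was at 26.9 and 45.3 FPKM in AThi, against 13.3, 18.5 and 18.3 FPKM in ATlo. All AThi values were above the ATlo values, with a wide gap between the 2 AThi libraries. The log2 fold change was 1.06 ± 0.23 (SE), with an adjusted p of 0.00802 in limma. It was 0.69 without AThi replicate 2 and 1.43 without AThi replicate 1, and it passed in both fits.

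The ratio of Egln3 to Egln1 was 0.325 and 0.488 in AThi, against 0.307, 0.392 and 0.401 in ATlo. The groups overlapped, and the mean log2 ratio differed by 0.13 (exact two-sided permutation p 0.6). By FPKM, Egln1 was above Egln3 in every library.

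Vhl, on chromosome 6 (113623959 to 113631633, plus strand), encodes the substrate receptor of the ligase that binds hydroxylated HIF. It was at 17.1 and 15.6 FPKM in AThi, against 12.6, 12.9 and 13.1 FPKM in ATlo. This was the smallest of the 8 rises, at 0.33 ± 0.07 (SE) with an adjusted p of 0.00581 in limma, and 18.7% of tested genes had a larger rise.

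Of 17 genes of the hydroxylase and degradation list found in the table, including Vhl, Egln1 and Egln3, 16 were tested: 5 rose, 8 fell and 3 were not called, against rises in 22.2% and falls in 29.4% of all tested genes. The median of the list was -0.13 log2 units. Beside Vhl, the other parts of its ligase were lower in AThi. The elongin genes Elob and Eloc fell by 0.66 and 0.43 on the log2 scale, the scaffold Cul2 fell by 0.40 and the RING subunit Rbx1 fell by 0.26. These genes serve other ligases as well. Elob, the most abundant of them, was at 104 and 108 FPKM in AThi, against 157, 174 and 174 FPKM in ATlo, with an adjusted p of 0.000549 in limma.

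Ube2s, a ubiquitin-conjugating enzyme of mitosis also tied to VHL turnover, fell by 1.14 on the log2 scale, Siah1b by 0.96, and the SUMO protease gene Senp1 by 0.71. The ubiquitin ligase gene Siah2, whose product acts on EGLN proteins, fell by 0.21. Os9, an ER lectin gene, rose by 0.65 ± 0.08 (SE), and the deubiquitinase gene Usp20 by 0.30 ± 0.08 (SE). Egln2, which encodes PHD1, was at 19.1 and 19.6 FPKM in AThi and 18.5 to 21.9 FPKM in ATlo, with an adjusted p of 0.624. Hif1an, the asparaginyl hydroxylase FIH, was at 17.3 and 16.8 FPKM in AThi and 15.2 to 16.02 FPKM in ATlo, with an adjusted p of 0.132. Siah1a did not pass either, at 5.23 and 5.72 FPKM in AThi and 4.75 to 5.50 FPKM in ATlo, and P4htm was below the filter at 0.48 and 0.73 FPKM in AThi and 0.29 to 0.41 FPKM in ATlo. Without AThi replicate 2, 5 genes of the list fell. All 16 cell division genes of a list read beside it also fell in AThi, at a median of -3.29 log2 units, and their part in the falls of this list was not tested.

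Coactivators and feedback genes gave 4 rises and 0 falls in limma among 8 tested, where 22.2% of all tested genes rose and 29.4% fell. The largest rises were in Ncoa1, a nuclear receptor coactivator gene, by 0.83 ± 0.08 (SE), and in the acetyltransferase genes Ep300 and Crebbp, by 0.40 ± 0.08 and 0.35 ± 0.09 (SE). Without AThi replicate 2, 2 of the genes rose.

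Among the targets, Vegfa encodes the growth factor that draws vessels into tissue and was the most abundant of the 10 genes in every library. It lies on chromosome 17 (46016993 to 46032369, minus strand). It was at 131 and 186 FPKM in AThi, against 62.7, 72.0 and 64.9 FPKM in ATlo. The lower AThi library was still well above the highest ATlo library. The log2 fold change was 1.22 ± 0.15 (SE), with an adjusted p of 0.000671 in limma, and 1.47% of tested genes had a larger rise.

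No other tested ligand or receptor of the VEGF list rose. Vegfb was at 39.3 and 33.8 FPKM in AThi and 31.98 to 41.25 FPKM in ATlo, with an adjusted p of 0.984. The co-receptor gene Nrp2 fell by 0.56 on the log2 scale, to 2.50 and 2.36 FPKM in AThi, against 3.47 to 4.04 FPKM in ATlo. The list held 10 measured genes, 4 of them above the filter.

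P4ha1 and P4ha2 encode alternative catalytic subunits of the collagen prolyl hydroxylase, which matures collagen in the ER. P4ha2, on chromosome 11 (54100095 to 54131665, plus strand), was at 42.0 and 51.7 FPKM in AThi, against 13.2, 14.2 and 14.7 FPKM in ATlo. It had the largest rise of the 10 genes, at 1.70 ± 0.10 (SE) with an adjusted p of 5.86e-05 in limma, and 0.44% of tested genes rose more. P4ha1, on chromosome 10 (59323296 to 59373304, plus strand), was at 37.0 and 45.3 FPKM in AThi, against 21.4, 25.3 and 25.4 FPKM in ATlo. Its log2 fold change was 0.76 ± 0.11 (SE), with an adjusted p of 0.00170.

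The order of both subunits by FPKM differed between the populations. The ratio of P4ha2 to P4ha1 was 1.14 in each of the AThi libraries, against 0.619, 0.559 and 0.578 in ATlo. By FPKM, P4ha2 was therefore the higher in both AThi libraries and P4ha1 in all 3 ATlo libraries. The gene lengths behind these FPKM are not stated, so which transcript was truly more abundant is uncertain. A fixed length does not alter the difference in ratio between the groups. The mean log2 ratio was 0.96 higher in AThi, with an exact two-sided permutation p of 0.2, the smallest possible here, and it lay between 0.93 and 1.004 with any 1 library left out.

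**Figure D2:**
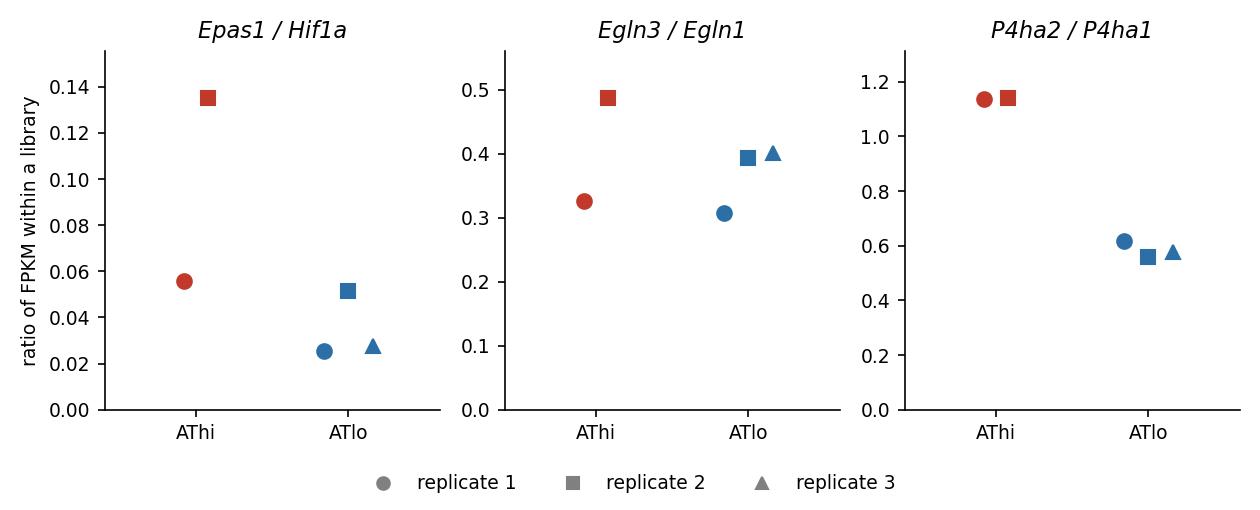
Ratio of FPKM within each library (y axes, from 0) of Epas1 to Hif1a, Egln3 to Egln1 and P4ha2 to P4ha1, for the AThi and ATlo libraries (x axes), where symbols are replicates. The P4ha2 to P4ha1 ratio is 1.14 in both AThi libraries and between 0.559 and 0.619 in ATlo, while the Egln3 to Egln1 ratio overlaps between the groups.

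Of 8 tested genes of the collagen hydroxylase list, which includes P4ha1 and P4ha2, 4 rose, 0 fell and 4 were not called in limma, while 22.2% of all tested genes rose and 29.4% fell. The median was 0.21 log2 units. Plod2, a lysyl hydroxylase gene that sets collagen crosslinks, was at 26.9 and 30.6 FPKM in AThi, against 9.91, 12.2 and 12.9 FPKM in ATlo, a log2 fold change of 1.27 ± 0.12 (SE) with an adjusted p of 0.000284. P4hb, the beta subunit shared by P4ha1 and P4ha2 and named after its values were seen, was at 763 and 855 FPKM in AThi and 619 to 652 FPKM in ATlo, and rose by 0.34 ± 0.09 (SE). Of the genes that did not pass, also named after their values were seen, Plod1 and Plod3 had log2 fold changes of -0.06 and 0.08, with adjusted p-values of 0.648 and 0.328.

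Ankrd37, an ankyrin repeat gene known as a HIF target, lies on chromosome 8 (45996902 to 46005707, minus strand). It was at 45.8 and 69.9 FPKM in AThi, against 18.1, 21.6 and 19.4 FPKM in ATlo. The groups did not overlap, and the log2 fold change was 1.51 ± 0.17 (SE), with an adjusted p of 0.000555 in limma. Its exons overlap those of Ufsp2 and Lrp2bp on the opposite strand over 57 and 349 bases. Ufsp2 was at 12.0 and 11.8 FPKM in AThi and 14.4 to 15.8 FPKM in ATlo, and Lrp2bp was at 0.34 and 0.48 FPKM in AThi and 0.18 to 0.28 FPKM in ATlo. How many reads of the overlaps were counted to each gene was not tested.

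Kdm3a, on chromosome 6 (71588972 to 71632990, minus strand), encodes a histone demethylase of the JmjC family that removes methyl groups from histone H3 and itself needs oxygen. It was at 34.5 and 43.2 FPKM in AThi, against 17.6, 20.9 and 20.6 FPKM in ATlo. Both AThi values were above all ATlo values, and the log2 fold change was 0.96 ± 0.12 (SE), with an adjusted p of 0.000776 in limma.

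Of 19 tested genes of the JmjC family, Kdm3a included, 12 rose, 2 fell and 5 were not called, beside 22.2% higher and 29.4% lower among all tested genes. The median was 0.32 log2 units. Kdm3a had the largest rise, followed by its family relative Kdm4b at 0.82 ± 0.08 (SE), and Kdm5b at 0.73 ± 0.06 (SE), also demethylase genes for histone H3. Kdm8 and Riox2 fell by 0.57 and 0.49 on the log2 scale.

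**Figure D3:**
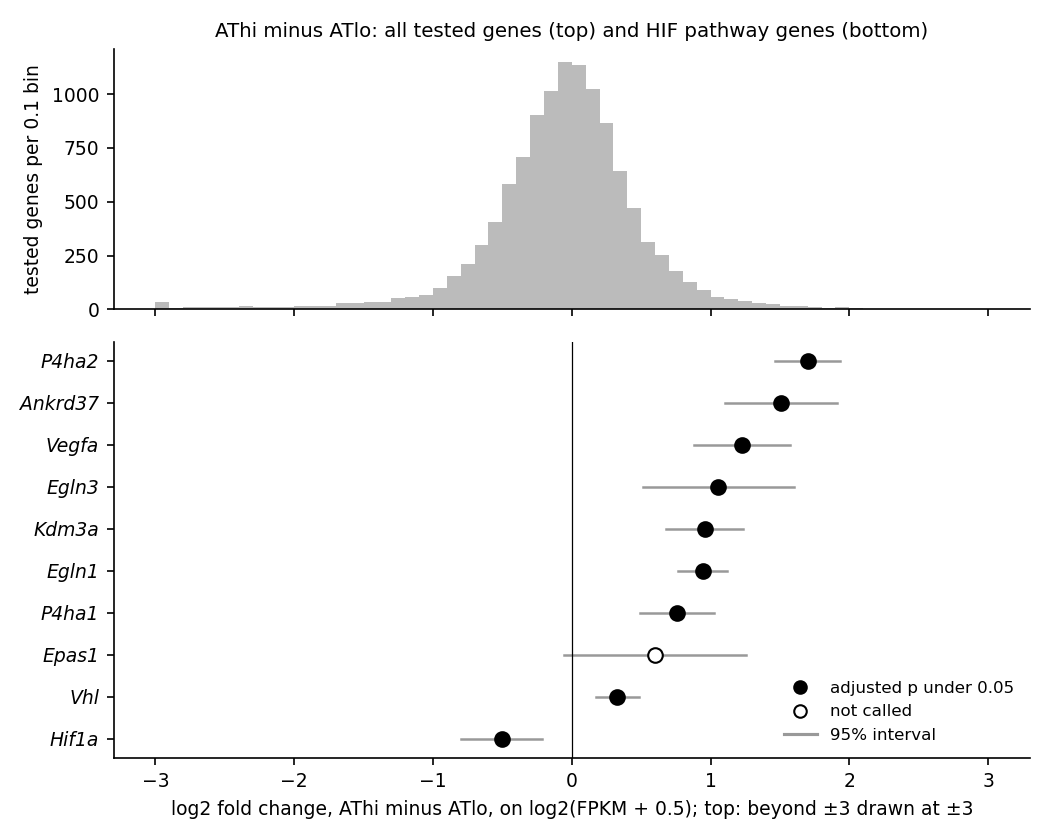
Top, number of tested genes per bin of log2 fold change, AThi minus ATlo, on log2(FPKM + 0.5), with values beyond the axis drawn at its ends. Bottom, the same quantity for each of the 10 genes with its 95% interval, filled where the adjusted p was under 0.05. P4ha2 at 1.70 and Ankrd37 at 1.51 lie farthest to the right, and Hif1a at -0.50 is the 1 gene to the left of 0.

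Beyond the 10 genes, 64 further HIF targets of a list were found in the table, of which 55 were tested and 9 were below the filter. Of the 55, 42 rose in AThi, 1 fell and 12 were not called, at a median of 0.68 log2 units, against rises in 22.2% and falls in 29.4% of all tested genes. A rise of at least 1 log2 unit was found in 17 of them, against 2.38% of all tested genes. The list was chosen with earlier results of these data known. With any 1 library left out, 36 to 40 of them rose.

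Large rises in this list were found in Adm and Vldlr. Adm, the gene of the vasodilator peptide adrenomedullin, was at 5.35 and 7.32 FPKM in AThi, against 1.19, 1.27 and 1.37 FPKM in ATlo. The lipoprotein receptor gene Vldlr was at 10.6 and 15.9 FPKM in AThi, against 2.90, 4.23 and 3.48 FPKM in ATlo.

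The glycolytic enzyme gene Eno1 was the 1 target that fell, to 50.4 and 60.8 FPKM in AThi, against 69.0, 71.4 and 75.2 FPKM in ATlo, with an adjusted p of 0.0134. Without AThi replicate 1 no target of the list fell. Eno1 has a near-identical copy in the mouse genome, and its value is uncertain for that reason, since sharing of reads was not tested. Nor was it tested for any other target of the list, including those that rose. The 12 targets that did not pass, named after their values were seen, were Slc2a1, Pfkfb4, Tpi1, Pgam1, Ldha, Slc16a3, Pdk3, Bhlhe41, Angptl4, Fut11, Mif and Tfrc. Genes of glycolysis and its control stood on both sides, since Hk1, Hk2, Gpi1, Pfkl, Pfkp, Pfkfb3, Aldoa, Aldoc, Pgk1 and Pdk1 of the same list rose, by between 0.23 (Hk1) and 1.36 (Pfkfb3) on the log2 scale. These were also named after their values were seen. The glucose transporter gene Slc2a1 was at 65.5 and 82.8 FPKM in AThi and 57.6 to 61.8 FPKM in ATlo, with no overlap and an adjusted p of 0.0529. The lactate exporter gene Slc16a3 was at 68.7 and 82.8 FPKM in AThi and 65.0 to 72.3 FPKM in ATlo, with overlap and an adjusted p of 0.283. Angptl4, a lipase inhibitor gene, was at 34.5 and 39.8 FPKM in AThi and 39.5 to 52.8 FPKM in ATlo, a log2 fold change of -0.31 ± 0.13 (SE) with an adjusted p of 0.0779.

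**Figure D4:**
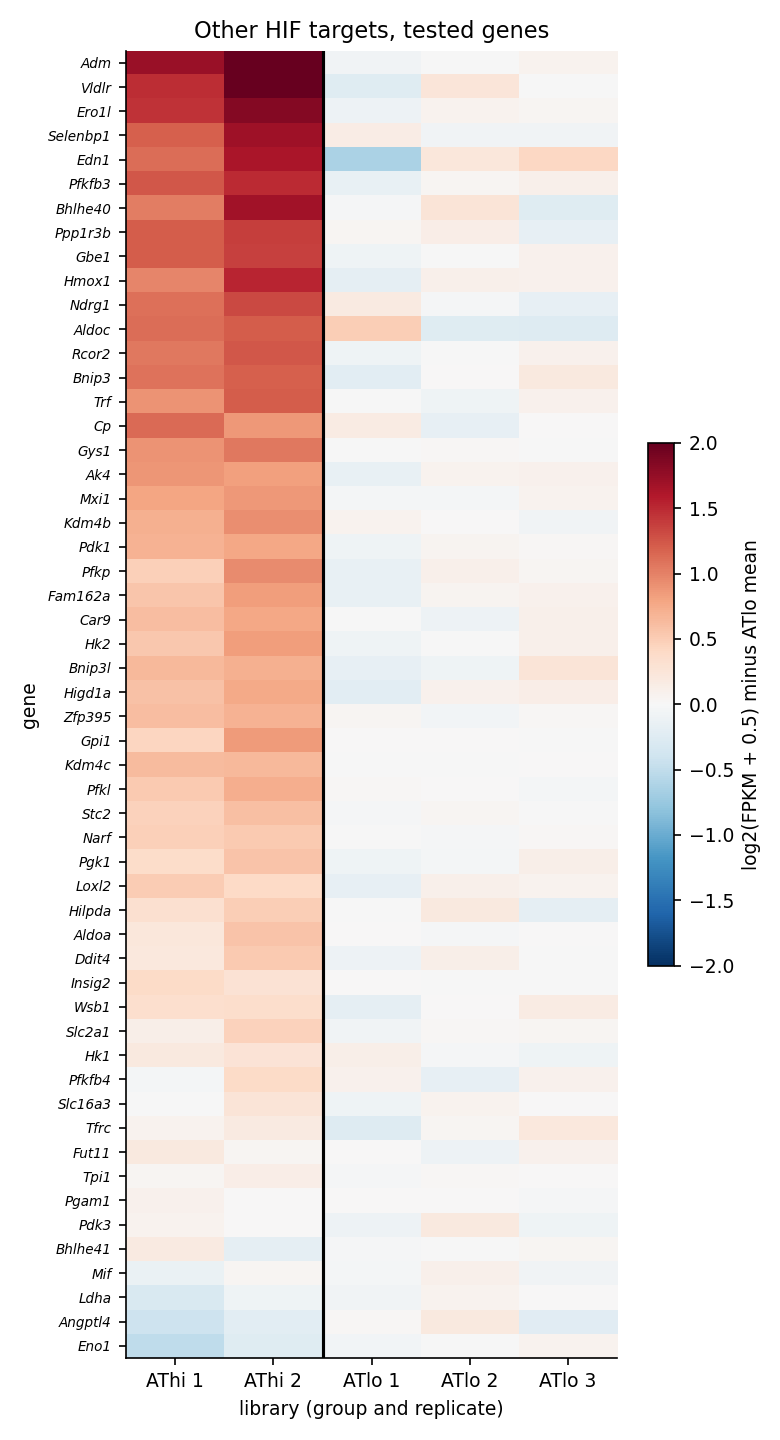
Each row is a tested further HIF target, with 1 of the 55 left out, and each column a library, coloured by log2(FPKM + 0.5) minus the mean of the ATlo libraries, with colours ending at ±2 and rows in order of log2 fold change. Most rows are red in both AThi columns, from Adm at 1.93 downwards, and the bottom row, Eno1, is blue in both.

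**Figure D5:**
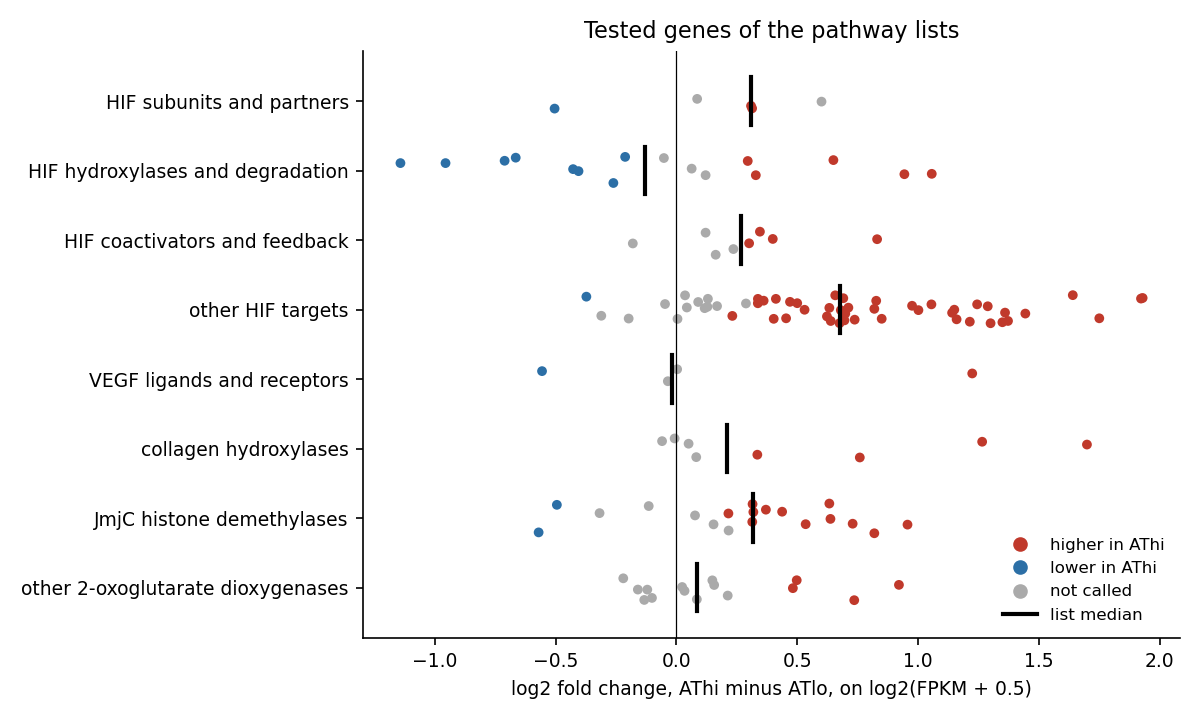
Log2 fold change, AThi minus ATlo, on log2(FPKM + 0.5) (x axis) of every tested gene of 8 gene lists (rows), red where higher, blue where lower and grey where not called, with a black bar at the list median. The further HIF targets lie mostly to the right of 0, with a median of 0.68, while the hydroxylase and degradation list spreads to both sides, with a median of -0.13.

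Libraries of 1 group also differed among themselves. Of the 8 genes that rose, 7 were higher in AThi replicate 2 than in AThi replicate 1, Vhl being the exception, and all 8 were lowest in ATlo replicate 1. AThi replicate 2 was the deeper AThi library. Among the 42 further targets that rose, 38 were higher in AThi replicate 2, or 90.5%, as were 56.5% of all genes called higher. ATlo replicate 1 was the lowest of its group in 22 of the 42, or 52.4%, as in 27.5% of all genes called higher.

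The levels of other gene groups are given beside these. Immediate-early and handling genes, which respond to growth signals and to cell dissociation, summed to 4235 and 6661 FPKM in AThi replicates 1 and 2, against 1976, 2468 and 1655 FPKM in ATlo replicates 1 to 3. Their sum was higher in AThi replicate 2 than in AThi replicate 1, and lowest in ATlo replicate 3. That list gave 14 rises and 0 falls in limma among 18 tested genes, against 22.2% and 29.4% of all tested genes. Vegfa is also known to respond to such signals. The genes of that list not called were Klf4 (0.37 log2 units), Klf6 (0.23) and the heat-shock genes Hspa1a (-1.31) and Hspa1b (-0.36). These were named after their values were seen. The 16 cell division genes summed to 114 and 110 FPKM in AThi, against 546, 615 and 693 FPKM in ATlo. The part of handling and of fewer dividing cells in the levels of the 10 genes was not tested. In sorted populations, fewer cells expressing a gene and less RNA per cell cannot be told apart. Fibroblast markers summed to at most 0.19 FPKM in any library. Among immune markers Cd68, a lysosomal membrane protein gene, rose, at 8.68 and 14.7 FPKM in AThi and 4.31 to 4.55 FPKM in ATlo, while the defining immune gene Ptprc was at or below 0.05 FPKM. Of the 6 acinar markers 3 were listed at 0 in every library, and the summed level of 10.8 and 11.8 FPKM in AThi and 11.9 to 13.2 FPKM in ATlo was almost all Cela1.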

How the data were processed

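Poly(A) RNA of sorted cells was sequenced from stranded libraries, 2 of AThi and 3 of ATlo. The values are FPKM, deposited by the authors in 1 table rounded to 2 decimals, with no count column. Named in the submitters' processing notes are STAR, featureCounts, DESeq2, bcl2fastq, mm10 and GRCm38. For versions, annotation, strand setting and FPKM formula, nothing is stated in the sources read. The scale is relative, so a change in RNA per cell leaves no trace.

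The 11397 genes that averaged 1 FPKM or more were fitted together with limma 3.58.1 in R 4.3.3 (eBayes with trend) on log2(FPKM + 0.5), group as the single term, two-sided, with Benjamini-Hochberg adjustment over all of them. This scale understates the change of low genes. The fit was also run on simulated data, where far fewer genes changed than were called here. That run does not give the error rate of the fit on these data. Ratios within a library were compared by exact permutation in SciPy 1.17.1. Depth was read from single-exon genes of up to 200 bases, where the product of FPKM and length took whole steps (tolerance 0.1, 100% of 255 to 335 values per library). The Poisson intervals of FPKM cover counting error only. The intervals of log2 fold changes come from the SE of the limma fit. Coordinates, exon lengths and overlaps came from GENCODE M21 (GRCm38), and promoter windows from RefSeq (GRCm38.p6).

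The 10 genes and all lists were chosen with earlier results of these data known. Text names all 10, both HIF factor and hydroxylase lists, and the 3 largest calls per direction of the other lists, with exceptions marked; defining cell markers were named after their values were seen. Alternatives changed the pseudocount, filter, scaling, moderation, block and libraries. Of the further HIF targets, 1 is counted but not reported here by name.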

Additional observations from a re-analysis of the deposited data

How the results depend on the processing

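Of the 10 genes, 8 to 10 were called under each alternative, and no gene changed direction. With any 1 library left out the log2 fold change ranged from -0.67 to -0.34 for Hif1a, 0.25 to 0.95 for Epas1, 0.26 to 0.39 for Vhl, 0.86 to 1.03 for Egln1, 0.69 to 1.43 for Egln3, 0.97 to 1.48 for Vegfa, 0.61 to 0.90 for P4ha1, 1.55 to 1.85 for P4ha2, 1.204 to 1.808 for Ankrd37 and 0.80 to 1.12 for Kdm3a, and all but Hif1a and Epas1 kept their call each time. With 1 AThi library left, that library is assumed to vary like the others. With no filter on low values, Hif1a (log2 fold change -0.50) lost its call, and the cause was not tested. With the filter at 5 FPKM Epas1 gave no value. The count over all genes was 4309 to 5718 with 1 library left out and 4414 to 5942 otherwise, and 1683 rather than 2529 genes were higher at the 5 FPKM filter, where fewer genes are tested.

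With the replicate number as a block, 5909 genes were called, and Epas1 passed, with a log2 fold change of 0.56 and an adjusted p of 0.0154. Deviations from the group mean had an r across genes of 0.200 between the libraries numbered 1 and 0.297 between those numbered 2. The deviations of the 2 AThi libraries are exact opposites and those of ATlo sum to 0, so both values are tied and are not separate evidence. There are only 2 pairs, and ATlo replicate 3 has no partner. The labels do not say what the code shared by the titles of same-numbered libraries marks. The ratio differences ranged from 0.76 to 2.03 for Epas1 to Hif1a, -0.16 to 0.42 for Egln3 to Egln1 and 0.931 to 1.004 for P4ha2 to P4ha1 with 1 library left out.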

Other observations

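Further enzymes that, like the EGLN and collagen hydroxylases, use oxygen and oxoglutarate were read beside the 10 genes. Of 15 tested, 4 rose in AThi, 0 fell and 11 did not pass in limma, with a median log2 fold change of 0.09. Among all tested genes 22.2% rose, close to the share here, and 29.4% fell. Asph, which encodes aspartate beta-hydroxylase, was at 20.2 and 18.8 FPKM in AThi, against 9.94, 9.82 and 10.4 FPKM in ATlo, a log2 fold change of 0.92 ± 0.06 (SE) with an adjusted p of 0.000101. Tet2, which oxidises methylated cytosine in DNA, rose by 0.74 ± 0.13 (SE), and Phyh, a peroxisomal hydroxylase gene, by 0.50 ± 0.10 (SE).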
